A study of Mus musculus with 16 samples.

Results

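The pericentral Wnt zonation genes examined here are Rspo3, Lgr5, Rnf43, Znrf3, Axin2, Tbx3, Glul, Oat, Slc1a2 and Cyp1a2, a group of beta-catenin-driven liver genes and parts of the Wnt signal that drives them. They were chosen by name for this role and looked up by symbol in the deposited table, where all 10 were found among 41079 genes. All 10 passed the filter on low counts, which kept 16742 genes for testing.

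Bulk RNA of whole liver was sequenced from 16 mice of C57BL/6J background aged 20 to 22 months, with 4 male CRE-, 4 male LKO, 4 female CRE- and 4 female LKO. LKO mice carry a floxed Gcgr, the gene of the glucagon receptor, together with an Albumin-Cre transgene, whose promoter is active in hepatocytes. CRE- mice carry the same floxed Gcgr with no Cre transgene, so that the floxed allele is common to every group. The deletion was present through development, so an effect of early loss and one of later loss are not told apart.

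Hepatocytes along the path from the portal vein to the central vein do different work, and those around the central vein make glutamine from ammonia and carry much of the cytochrome P450. This pericentral program is held in place by Wnt ligands and R-spondins released near the central vein, which stabilise beta-catenin in the neighbouring hepatocytes. Glucagon is known as a signal on the opposite side, which favours the periportal genes of amino acid breakdown and glucose output.

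Values are given as CPM, the reads counted on a gene scaled to the library total after TMM normalization, and the 4 livers of a group are listed as replicates 1 to 4. Library totals lay between 33268424 reads in female LKO 4 and 56488920 in female CRE- 2. The targeted gene was read first as a check of the labels. Gcgr was at 190.4, 193, 127 and 189.6 CPM in male CRE- livers and at 116, 136, 129.9 and 160.3 CPM in male LKO livers. The male groups overlapped, because control 3 lay among the LKO livers. In females Gcgr was at 162, 208, 201 and 180 CPM in CRE- livers and at 48.8, 132, 119 and 93.6 CPM in LKO livers. Every female LKO liver was below every female control. Reads are counted over all exons, also those not flanked by the loxP sites, so a deletion need not bring the count to 0. The log2 fold change of Gcgr was -0.37 (95% interval -0.89 to 0.15, adjusted p = 0.671) in males by edgeR. It was -0.93 (95% interval -1.46 to -0.41, adjusted p = 0.0443) in females by edgeR, and -0.56 (adjusted p = 0.129) by edgeR without the 3 libraries described next. The female call was lost without female CRE- 1, 2, 3, 4, female LKO 1, 3 and 4, at -1.0002, -0.88, -0.90, -0.93, -0.69, -1.04 and -0.90 in that order.

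The tissue label was checked on hepatocyte markers, of which 7 of 8 were in the table and passed the filter. Their gene with the highest mean CPM, Alb, was at 51070, 74350, 89870 and 69970 CPM in male CRE- livers and at 48300, 53910, 69100 and 55660 CPM in male LKO livers. Female CRE- livers had Alb at 92400, 90170, 94350 and 105500 CPM and female LKO livers at 41690, 71960, 69450 and 53280 CPM. Alb was thus abundant in all 16 libraries, and the male groups overlapped, while every female LKO liver was below every female control. Ttr, another of the 7, was chosen after its values were seen. It was at 2223 CPM in male CRE- 3, 920.8 CPM in female LKO 1 and 2103 CPM in female LKO 4. In the other libraries Ttr lay between 4042 and 7239 CPM. The log2 fold change of Alb in females was -0.69 (adjusted p = 0.103) by edgeR, and -0.42 without the 3 libraries described below. None of the 7 passed the threshold in an LKO comparison by edgeR, with 0 in males and 1 in females at an unadjusted p under 0.05, and DESeq2 called 0 in males and 1 in females. All 7 had an estimate below 0 in females, with a median of -0.265, and the male median was -0.0017.

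Across all genes tested, 3 libraries were least like the others of their group, by the Pearson r of log2 CPM with the mean of the other 3. It was 0.937 for female LKO 1, 0.951 for male CRE- 3 and 0.955 for female LKO 4, and between 0.964 and 0.984 for the other 13 libraries. These 3 libraries also carry the extreme values of the pericentral genes. Male CRE- 3 was the lowest of its group in 8 of the 10 genes and the lowest of all 16 libraries in 7, where 34.7% and 15.7% of all genes tested were. Female LKO 1 was the lowest of its group in 7 of the 10, against 32.7% of all genes. Female LKO 4 was the highest of its group in 6 of the 10, and the highest of all 16 libraries in those same 6, against 23.0% and 8.98% of all genes. The choice of these 3 was made after the data were seen. Many fold changes that rest on them are also given without them or without 1 of them. Mean levels and the spread within groups are given with all 16 libraries only.

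Other measures also moved with these libraries, and their part in the pericentral values was not tested. The deviation of a library from its group was correlated across genes with log2 gene length, at a Spearman rho of 0.52 in male CRE- 3 and 0.41 in female LKO 1, against -0.10 in female LKO 4. Genes are not independent replicates, so this is a description. The lowest rho of the 16 was that of male CRE- 4, at -0.46. Mitochondrial genes took 0.434% of reads in male CRE- 3 and 0.605% in female LKO 1, and between 0.0735% and 0.327% in the other 14 libraries.

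By edgeR with p-values adjusted over all genes tested and a threshold of 0.05, 0 of the 10 genes differed between male LKO and male CRE- livers, where 0.454% of all genes did. At an unadjusted p under 0.05 there was 1 of the 10, Tbx3, against 9.53% of all genes, and DESeq2 called 0 of the 10, against 1.7% of the genes it tested. The male groups did not overlap in 1 of the 10, Cyp1a2, against 6.49% of all genes. In the female comparison 0 of the 10 passed by edgeR, where 4.24% of all genes did. At an unadjusted p under 0.05 there was again 1, Znrf3, against 21.4% of all genes, and DESeq2 called 0 against 10.1%. The female groups did not overlap in 1 of the 10, Tbx3, against 11.6% of all genes.

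The difference of the LKO effect between the sexes was tested as an interaction, females less males. Of the 10 genes 0 passed by edgeR, where 0% of all genes did. At an unadjusted p under 0.05 there were 2, Cyp1a2 and Znrf3, against 16% of all genes, and DESeq2 called 0, against 2.19%. Between female and male controls 0 of the 10 passed by edgeR, against 0.92% of all genes, and DESeq2 called 0, against 2.65%. Again 2 had an unadjusted p under 0.05, Cyp1a2 and Znrf3, against 12.7% of all genes, and in 0 of the 10 did the control groups not overlap, against 7.54%. The median log2 fold change of the 10 genes was 0.06 in males, against -0.01 for all genes, and 0.39 in females, against 0.04. Without female LKO 4 the female median of the 10 was 0.05, and without the 3 libraries it was 0.16, so it rests on that liver. Without male CRE- 3 the male median was -0.03. For the interaction the median was 0.57, against 0.04, and 0.04 without female LKO 4. Between the controls it was 0.23, against -0.01, and -0.08 without male CRE- 3. RNA of whole liver cannot tell fewer pericentral hepatocytes from less RNA of these genes per cell.

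**Figure D1:**
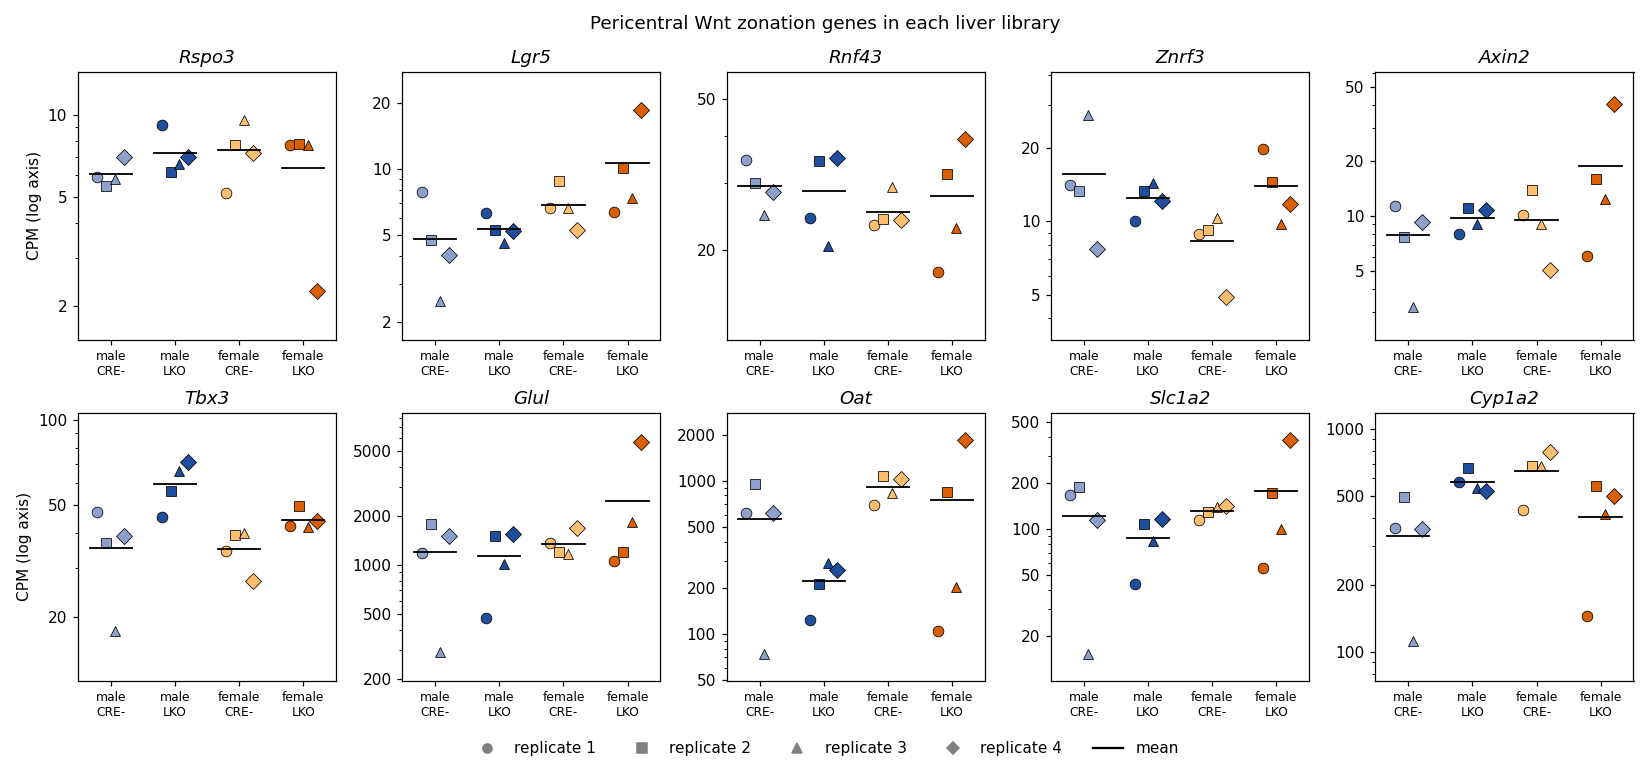
CPM of the 10 pericentral genes on a log axis, with a point for each liver, a shape for each replicate number and a line at the mean of the 4 livers of a group. Female LKO 4 has the highest Glul, at 5724 CPM, and male CRE- 3 the lowest, at 293 CPM.

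Rspo3 encodes an R-spondin, a secreted protein that strengthens the Wnt signal at its receptor and that endothelial cells of the central vein release. It was at 5.90, 5.48, 5.82 and 7.01 CPM in male CRE- livers and at 9.16, 6.16, 6.61 and 7.02 CPM in male LKO livers. These ranges overlapped, with LKO 1 above all controls and LKO 4 level with the highest control. In females Rspo3 was at 5.15, 7.71, 9.55 and 7.22 CPM in CRE- livers and at 7.73, 7.83, 7.72 and 2.26 CPM in LKO livers. LKO 1, 2 and 3 were close together inside the control range, and LKO 4 was below every other library. The count in female LKO 4 was 78 reads, against 224 in male CRE- 3, the next lowest count. Rspo3 had a log2 fold change of 0.26 (95% interval -0.40 to 0.91, adjusted p = 0.822) in males and did not pass. For Rspo3 in females the estimate was -0.21 (95% interval -0.87 to 0.44, adjusted p = 0.749), and 0.07 without female LKO 4. The difference between the sexes was -0.47 (95% interval -1.39 to 0.45, adjusted p = 0.591). It depends in part on female LKO 4, since the female estimate without that library was nearer the male one. The male estimate rests in part on male LKO 1, the highest of its group.

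Lgr5 encodes a receptor for R-spondins and is itself switched on by beta-catenin. It was at 7.85, 4.75, 2.50 and 4.04 CPM in male CRE- livers and at 6.28, 5.29, 4.60 and 5.24 CPM in male LKO livers. All male LKO values lay inside the range of the controls, whose lowest was replicate 3. In females Lgr5 was at 6.68, 8.88, 6.68 and 5.27 CPM in CRE- livers and at 6.37, 10.1, 7.43 and 18.6 CPM in LKO livers. LKO 4 was the highest of all 16 libraries and LKO 2 was also above the controls, while LKO 1 and 3 were within their range. Lgr5 had a log2 fold change of 0.16 (95% interval -0.57 to 0.89, adjusted p = 0.912) in males, and -0.07 without male CRE- 3. For Lgr5 in females the estimate was 0.63 (95% interval -0.10 to 1.35, adjusted p = 0.312). It was 0.22 without female LKO 4 and 0.37 without the 3 libraries.

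Rnf43 encodes a membrane ubiquitin ligase that takes Frizzled receptors off the cell surface and so limits the signal, until R-spondin and an Lgr receptor remove it. It was at 34.5, 30.01, 24.8 and 28.5 CPM in male CRE- livers and at 24.4, 34.4, 20.5 and 34.98 CPM in male LKO livers. The groups overlapped, with LKO 1 and 3 below all controls and LKO 4 barely above them. In females Rnf43 was at 23.3, 24.2, 29.4 and 23.9 CPM in CRE- livers and at 17.5, 31.7, 22.9 and 39.2 CPM in LKO livers. Here LKO 2 and 4 were above all controls and LKO 1 and 3 below them, so the LKO livers lay on both sides of a narrow control group. Rnf43 had a log2 fold change of -0.05 (95% interval -0.53 to 0.44, adjusted p = 0.968) in males. For Rnf43 in females the estimate was 0.14 (95% interval -0.35 to 0.63, adjusted p = 0.78), and -0.06 without female LKO 4. Both intervals hold 0 and lie within a fold of 2 in either direction.

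Znrf3 encodes the close relative of Rnf43 with the same action on Frizzled. It was at 14.1, 13.3, 27.4 and 7.71 CPM in male CRE- livers and at 10.03, 13.3, 14.3 and 12.1 CPM in male LKO livers. Male CRE- 3 was the highest of all 16 libraries, the reverse of its place in most of the other genes, and the remaining values overlapped. In females Znrf3 was at 8.92, 9.19, 10.3 and 4.92 CPM in CRE- livers and at 19.8, 14.6, 9.79 and 11.8 CPM in LKO livers. LKO 1, 2 and 4 were above all controls, LKO 1 most of all, and LKO 3 was just below the highest control. Znrf3 had a log2 fold change of -0.33 (95% interval -1.01 to 0.36, adjusted p = 0.785) in males, and 0.07 without male CRE- 3. For Znrf3 in females the estimate was 0.75 (95% interval 0.05 to 1.44, adjusted p = 0.197) by edgeR, with an unadjusted p of 0.0364 from edgeR. It did not pass over all genes, and it was 0.55 without female LKO 1. With the number in the library name as a block, an alternative added after the data were seen, it was 1.06 (adjusted p = 0.0308) by edgeR and passed, the only call of the 10 genes in any alternative. The difference between the sexes was 1.07 (95% interval 0.10 to 2.05, adjusted p = 0.284), and 0.68 without male CRE- 3. Between female and male controls the estimate was -0.91 (95% interval -1.60 to -0.21, adjusted p = 0.26), and -0.51 without male CRE- 3.

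Axin2 encodes a scaffold of the complex that degrades beta-catenin, and since beta-catenin switches the gene on, its RNA is commonly read as a gauge of the pathway. It was at 11.4, 7.71, 3.20 and 9.28 CPM in male CRE- livers and at 8.03, 11.1, 9.02 and 10.8 CPM in male LKO livers. Every LKO value was inside the range of the controls, whose lowest was again replicate 3. In females Axin2 was at 10.1, 13.8, 9.10 and 5.08 CPM in CRE- livers and at 6.07, 15.9, 12.3 and 40.5 CPM in LKO livers. LKO 4 was far above all other libraries, LKO 2 was above the controls, and LKO 1 and 3 were among them. Axin2 had a log2 fold change of 0.30 (95% interval -0.68 to 1.29, adjusted p = 0.867) in males, and 0.02 without male CRE- 3. For Axin2 in females the estimate was 0.97 (95% interval -0.02 to 1.96, adjusted p = 0.244), with the lower bound of the interval next to 0. It was 0.27 without female LKO 4 and 0.59 (adjusted p = 0.391) by edgeR without the 3 libraries.

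Tbx3 encodes a transcription factor that beta-catenin switches on in pericentral hepatocytes. It was at 47.4, 36.6, 17.9 and 38.8 CPM in male CRE- livers and at 45.6, 56.3, 65.99 and 70.9 CPM in male LKO livers. LKO 2, 3 and 4 were above all controls, and LKO 1 was just below the highest control. In females Tbx3 was at 34.4, 39.2, 39.8 and 26.8 CPM in CRE- livers and at 42.3, 49.8, 41.8 and 43.9 CPM in LKO livers. All female LKO livers were above all controls, by a small margin at the edge. Tbx3 had a log2 fold change of 0.76 (95% interval 0.26 to 1.26, adjusted p = 0.237) in males by edgeR, with an unadjusted p of 0.00506 from edgeR, the smallest of the 10 genes in either sex. The interval excludes 0, but the gene did not pass over all genes tested. Without male CRE- 3 the male estimate was 0.53, and with each male library left out in turn it lay between 0.53 and 0.93. For Tbx3 in females the estimate was 0.34 (95% interval -0.15 to 0.84, adjusted p = 0.436). It lay between 0.25 and 0.41 with each female library left out. The difference between the sexes was -0.42 (95% interval -1.12 to 0.28, adjusted p = 0.524). It depends in part on male CRE- 3, since the male estimate without that library was nearer the female one.

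Glul encodes glutamine synthetase, which joins ammonia to glutamate and is confined to the hepatocytes nearest the central vein. It was at 1181, 1796, 293 and 1511 CPM in male CRE- livers and at 471, 1497, 1009 and 1546 CPM in male LKO livers. Control 3 and LKO 1 were low in their groups, and the other male livers of both groups lay together. In females Glul was at 1362, 1200, 1169 and 1678 CPM in CRE- livers and at 1052, 1210, 1841 and 5724 CPM in LKO livers. LKO 4 was more than 3 times the next library, LKO 3 was also above the controls, and LKO 1 was below them. Glul had a log2 fold change of -0.08 (95% interval -1.23 to 1.07, adjusted p = 0.978) in males, and -0.42 without male CRE- 3. For Glul in females the estimate was 0.86 (95% interval -0.30 to 2.02, adjusted p = 0.398). Without female LKO 4 it was 0.02, so the female estimate rests on that library. The difference between the sexes was 0.94 (95% interval -0.69 to 2.58, adjusted p = 0.538), and 0.12 without female LKO 4.

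Oat encodes ornithine aminotransferase, a mitochondrial enzyme that passes the amino group of ornithine on toward glutamate in the same cells that make glutamine. It was at 613, 945, 74.2 and 617 CPM in male CRE- livers and at 122, 213, 292 and 261 CPM in male LKO livers. Controls 1, 2 and 4 were above every LKO liver, and control 3 was below all of them. In females Oat was at 690.5, 1080, 836 and 1033 CPM in CRE- livers and at 105, 846, 201 and 1848 CPM in LKO livers. LKO 1 and 3 were below all controls, LKO 2 was among them and LKO 4 was above them. Oat had a log2 fold change of -1.34 (95% interval -2.86 to 0.18, adjusted p = 0.583) in males by edgeR. Without male CRE- 3, the groups did not overlap and the estimate was -1.72 (adjusted p = 0.539) by edgeR. Without the 3 libraries it was -1.71 (adjusted p = 0.0749) by edgeR, the smallest adjusted p of the 10 genes in that fit, and it did not pass. For Oat in females the estimate was -0.28 (95% interval -1.78 to 1.22, adjusted p = 0.871). It was -1.24 without female LKO 4, 0.10 without female LKO 1 and -0.78 without the 3 libraries.

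Slc1a2 encodes a glutamate transporter of the cell membrane, which brings glutamate to the pericentral cells that use it for glutamine. It was at 166, 189.5, 15.2 and 114 CPM in male CRE- livers and at 43.4, 108, 83.1 and 116 CPM in male LKO livers. Control 3 was by far the lowest, controls 1 and 2 were above every LKO liver, and control 4 was among the LKO livers. In females Slc1a2 was at 115, 129, 139 and 142 CPM in CRE- livers and at 55.9, 173, 100 and 384 CPM in LKO livers. The controls were close together, LKO 2 and 4 were above all of them, and LKO 1 and 3 were below all of them. Slc1a2 had a log2 fold change of -0.47 (95% interval -1.71 to 0.78, adjusted p = 0.831) in males. Without male CRE- 3 the male estimate was -0.85, and -0.85 (adjusted p = 0.278) by edgeR without the 3 libraries. For Slc1a2 in females the estimate was 0.44 (95% interval -0.80 to 1.69, adjusted p = 0.722), and -0.25 without female LKO 4.

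Cyp1a2 encodes a cytochrome P450 that oxidises caffeine and many other compounds, and it is pericentral under beta-catenin and also responds to the aryl hydrocarbon receptor. It was at 359, 496, 112 and 355 CPM in male CRE- livers and at 578, 666, 544 and 526 CPM in male LKO livers. Every male LKO liver was above every male control, and control 3 was the lowest of all. In females Cyp1a2 was at 435, 682, 684 and 787 CPM in CRE- livers and at 144, 556, 416 and 503 CPM in LKO livers. Here LKO 1 was far below the rest and LKO 3 was just below the lowest control, while LKO 2 and 4 were inside the control range. Cyp1a2 had a log2 fold change of 0.81 (95% interval -0.03 to 1.65, adjusted p = 0.545) in males, and 0.51 without male CRE- 3. For Cyp1a2 in females the estimate was -0.68 (95% interval -1.51 to 0.16, adjusted p = 0.349), and -0.37 without female LKO 1. The sexes thus had estimates of opposite sign, and their difference was -1.48 (95% interval -2.67 to -0.30, adjusted p = 0.241) by edgeR, with an unadjusted p of 0.0171 from edgeR. It was -0.90 (adjusted p = 0.487) by edgeR without the 3 libraries. Between female and male controls the estimate was 0.97 (95% interval 0.13 to 1.81, adjusted p = 0.323) by edgeR, and 0.67 without male CRE- 3.

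**Figure D2:**
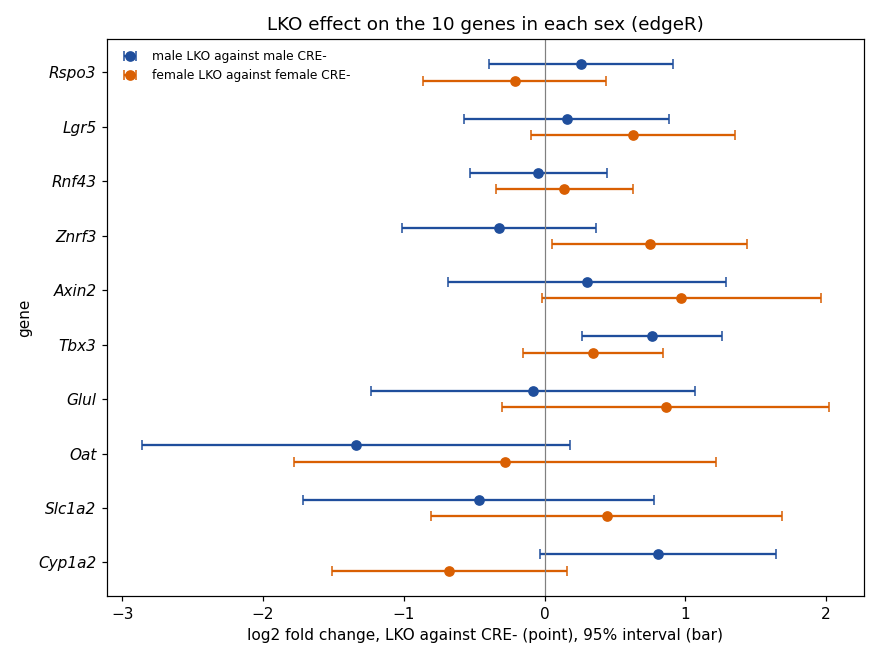
Log2 fold change of LKO against CRE- livers for the 10 genes from edgeR, males in blue and females in orange, with bars for the 95% interval. The male interval of Tbx3 (0.26 to 1.26) and the female interval of Znrf3 (0.05 to 1.44) exclude 0, and neither gene passed the threshold over all genes.

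Among the remaining differences between female and male controls, the estimate was 0.52 (95% interval -0.21 to 1.25) for Lgr5 and 0.69 (95% interval -0.81 to 2.20) for Oat. Both rest in part on male CRE- 3, the lowest male control in each, at 2.496 CPM of Lgr5 and 74.23 CPM of Oat. For Rspo3 the estimate was 0.29 (95% interval -0.36 to 0.94) and for Axin2 0.27 (95% interval -0.71 to 1.26). Glul, Slc1a2 and Tbx3 were closest to 0, at 0.18, 0.11 and -0.01. Rnf43 was at -0.23 (95% interval -0.71 to 0.26). The interaction estimates not yet given were 0.47 for Lgr5, 0.67 for Axin2, 0.19 for Rnf43, 1.06 for Oat and 0.91 for Slc1a2. Their intervals all hold 0, the widest being that of Oat at 1.06 (95% interval -1.06 to 3.19). Without female LKO 4 these interaction estimates were 0.08, -0.01, -0.0014, 0.11 and 0.23 in the same order.

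Levels are compared between genes only per length, as TPM, which divides each count by the gene's length. In male controls Glul had a mean of 881 (SD 429) TPM, Oat 536 (SD 322) and Cyp1a2 363 (SD 158). These 3 do not differ from their neighbour in that order beyond the spread, but all are far above the other 7. Slc1a2 followed at 18.7 (SD 12.1) TPM, Tbx3 at 14.6 (SD 5.69) and Rnf43 at 13.97 (SD 2.90), again within the spread of one another. Rspo3 was at 5.42 (SD 0.747) TPM, Znrf3 at 4.54 (SD 2.84), Axin2 at 3.16 (SD 1.54) and Lgr5 at 2.21 (SD 1.23). The genes of the signal were thus below the 3 enzymes in level. In female controls the order was the same for the first 7, from Glul at 863 (SD 108) TPM, Oat at 750.2 (SD 118) and Cyp1a2 at 604 (SD 99.4) down to Rspo3 at 5.51 (SD 1.31), and Znrf3 was last, at 1.98 (SD 0.657). Male LKO livers had Cyp1a2 at 629.7 (SD 86.4) TPM, between Glul at 813 (SD 325) and Oat at 208 (SD 60.4). Here the gap from Cyp1a2 to Oat was larger than the spread of either. Tbx3, at 23.6 (SD 2.97) TPM, was above Slc1a2, at 13.1 (SD 4.20). Female LKO livers had Glul at 1925 (SD 1596) TPM, Oat at 734 (SD 765) and Cyp1a2 at 465 (SD 174), where the SD of Oat was larger than its mean. Female LKO 4 alone had Glul at 4287 TPM and Oat at 1792 TPM, and it carries much of both means. Oat was below Cyp1a2 in female LKO 1 and 3, and the order of these 2 means rests on female LKO 4.

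The 10 genes also varied among livers of a group. The SD of log2 CPM within groups had a median of 0.60 over the 10 genes, against 0.44 over all genes tested. Oat had the largest, at 1.30, and 96.8% of all genes tested were below it. It was 1.08 for Slc1a2 (91.9% of genes below) and 0.91 for Glul (85.3% below). The glutamine genes were thus the most variable of the 10 over all 16 libraries. Male CRE- 3 had the lowest and female LKO 4 the highest value of Oat, Slc1a2 and Glul. These SDs therefore rest in large part on the libraries least like their group, and SDs without them are not given. Rnf43, at 0.34, and Tbx3, at 0.37, were below the median of all genes.

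How the 10 genes moved together was measured over the 16 libraries on log2 CPM with the group mean taken out, in 45 pairs. Pearson's r was above 0 in 30 pairs, with a median of 0.60. The median over pairs of other genes is not given, so whether the 10 move together more than other genes was not tested. By permutation of libraries within groups, 13 of the 45 pairs had an adjusted p under 0.05 (Benjamini-Hochberg over the 45 pairs), all with r above 0, and 5 pairs passed by Spearman's rho. The highest was Oat with Slc1a2, at r = 0.94 (permutation p adjusted to 0.0153) and rho = 0.89 (permutation p adjusted to 0.0402). Without the 2 libraries farthest from the median of Oat, male CRE- 3 and female LKO 1, its r was 0.87. Glul with Slc1a2 had r = 0.90 (permutation p adjusted to 0.0259) and rho = 0.86 (permutation p adjusted to 0.0402), and r = 0.64 without the 2 libraries farthest in Glul, which were female LKO 4 and male CRE- 3. Axin2 with Lgr5 had r = 0.89 (permutation p adjusted to 0.0153) and rho = 0.73 (permutation p adjusted to 0.0553), and r = 0.69 without 2 libraries. Without 2 libraries the sign held in all 13 of these pairs and r was at least 0.5 in 8 of them, but 0 of the 45 pairs passed. Without the 3 libraries least like their group 0 pairs passed and the median r was 0.25, so the common movement rests on those libraries. Oat with Slc1a2 was still at r = 0.75, Axin2 with Tbx3 at 0.75 and Axin2 with Lgr5 at 0.65, while Glul with Axin2 was at -0.07. Pairs that turned further below 0 included Glul with Lgr5, from 0.57 to -0.54, and Cyp1a2 with Axin2, from 0.66 to -0.30. Rspo3 and Znrf3 had r below 0 with Glul, at -0.61 and -0.55 (permutation p adjusted to 0.075 and 0.155), and neither passed. Without the 3 libraries Rspo3 with Glul was at r = -0.52 and Znrf3 with Glul at -0.09. Znrf3 was then at r = 0.64 with Axin2, 0.71 with Tbx3, 0.57 with Lgr5 and 0.48 with Slc1a2, where over all libraries its r was -0.32, -0.24, -0.26 and -0.51, so the sign turns with those libraries.

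Outside the 10, the genes most like Glul over the 16 libraries by Pearson's r of log2 CPM were Gm39011 (r = 0.87), Rhbg (r = 0.87) and Tbcb (r = 0.87). Those most like Axin2 were Dynlt1b (r = 0.89), Rdh9 (r = 0.84) and Sppl3 (r = 0.84). Without the 2 libraries farthest from the median of Glul or Axin2, which were female LKO 4 and male CRE- 3 in each case, r was 0.66, 0.68 and 0.63 for the genes like Glul. For those like Axin2 it was 0.77, 0.47 and 0.67. Rdh9 was at 70.6, 111, 11.2 and 65.4 CPM in male CRE- livers, 107, 136, 85.8 and 117 in male LKO, 67.2, 53.7, 108 and 64.7 in female CRE- and 51.1, 252, 103 and 468 in female LKO. Its low value in male CRE- 3 and high value in female LKO 4 carry much of its likeness to Axin2. They were picked as the highest of all genes tested, so their r is a description.

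A list of 24 other pericentral hepatocyte genes was read beside the 10. The counts of this and the later lists stand against all genes, of which 0.454% in males and 4.24% in females passed by edgeR. At an unadjusted p under 0.05 there were 9.53% in males and 21.4% in females, and DESeq2 called 1.7% and 10.1% of those it tested. By edgeR 0 of the 24 passed in males, with 2 at an unadjusted p under 0.05 and 1 called by DESeq2, and the median log2 fold change was 0.31. In females 0 of the 24 passed, where 5 had an unadjusted p under 0.05, all lower, as had 1530 of all 16742 genes in that direction, DESeq2 called 4, all lower, and the median was -0.31. The interaction gave 0 by edgeR and 0 by DESeq2, with 8 at an unadjusted p under 0.05 and a median of -0.81, where 16% of all genes had such a p. The male median of the 24 was 0.12 without male CRE- 3. The female median was -0.07 without female LKO 1 and -0.51 without female LKO 4. Without the 3 libraries the medians were 0.13 in males, -0.34 in females and -0.39 for the interaction. Their signs stayed the same in these fits, and their size depends on which of the 3 libraries is kept. Cyp2e1, the list's gene with the highest mean CPM, was at 5229, 8126, 1492 and 5902 CPM in male CRE- livers and at 4486, 9901, 5719 and 8894 CPM in male LKO livers. Female CRE- livers had Cyp2e1 at 4107, 5103, 6316 and 5517 CPM and female LKO livers at 1378, 3780, 6138 and 3045 CPM. Control 3 of the males and LKO 1 of the females were again the low ones. In male CRE- 3, 21 of the 24 were the lowest of the group, and in female LKO 1, 20 of the 24. Avpr1a, which encodes a vasopressin receptor, passed between female and male controls at 1.67 (SE 0.38, adjusted p = 0.0454) by edgeR. It was at 10.2, 6.64, 10.7 and 10.6 CPM in male controls and at 48.6, 31.2, 23.3 and 18.8 CPM in female controls, and the groups did not overlap. Its call was lost without male CRE- 1, 2, 3, 4, female CRE- 1, 2, 3 and 4, at 1.70, 1.54, 1.72, 1.73, 1.36, 1.66, 1.78 and 1.81 in that order. It was also lost in 5 of 10 other alternatives, among them a block for the replicate number in the title.

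**Figure D3:**
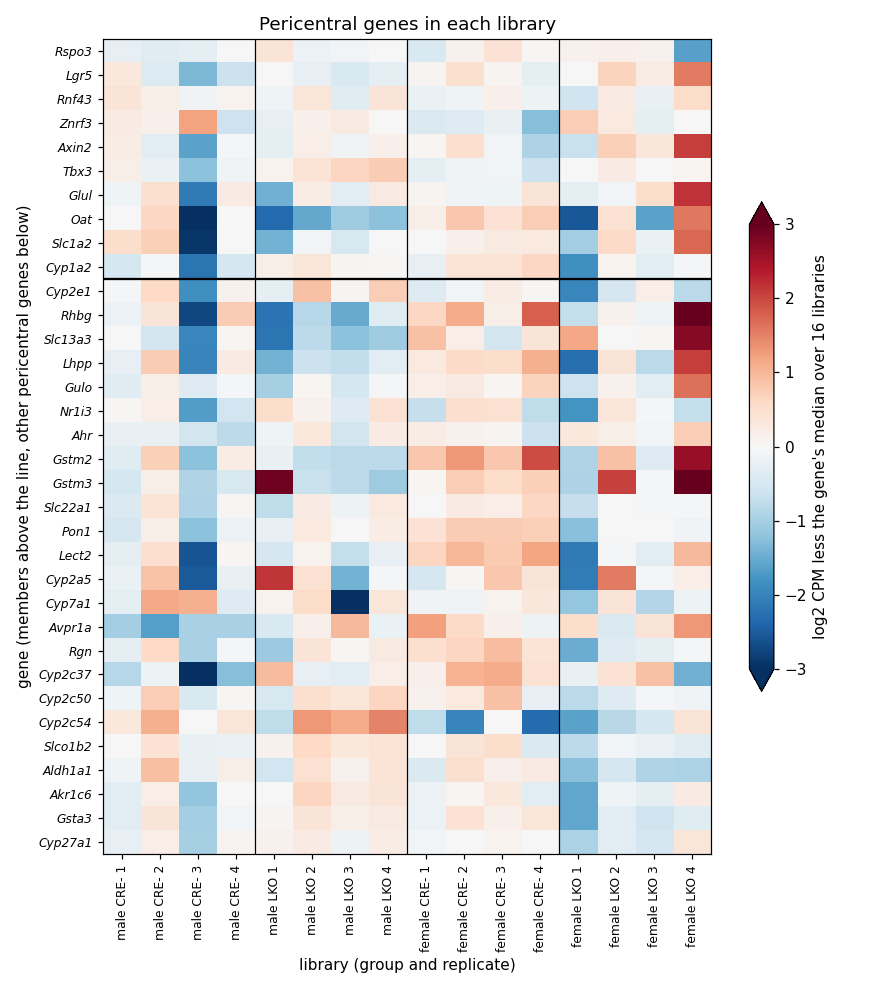
Log2 CPM of the 10 genes (above the line) and of 24 other pericentral genes (below it) in each of 16 libraries, less the gene's median over the 16 libraries, in colour from -3 to 3. Male CRE- 3 and female LKO 1 are low in most genes, 21 and 20 of the lower 24 being the lowest of their group, and female LKO 4 is high in many.

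Periportal hepatocyte genes, the opposite zone, had 23 of 24 in the table, all tested. Their median log2 fold change was -0.73 in males and -0.61 in females, with 11 genes lower at an unadjusted p under 0.05 in each sex, 1 higher in males and 2 higher in females. Without the 3 libraries the medians were -0.61 and -0.38. Estimates were below 0 for 19 of the 23 in males and 17 in females, where 8523 and 7849 of all 16742 genes were. By edgeR 1 of the 23 passed in males and 1 in females. DESeq2 called 4 in males, 1 higher and 3 lower, and 6 in females, 1 higher and 5 lower. Hsd17b6, a steroid and retinoid dehydrogenase, was higher in males at 2.32 (SE 0.43, adjusted p = 0.0273), from 95.5, 94.3, 68.7 and 77.5 CPM in CRE- to 557, 267, 475 and 379.5 CPM in LKO livers, with no overlap. Its call was lost without male CRE- 1, 2, 3, 4, male LKO 1, 3 and 4, at 2.38, 2.38, 2.22, 2.29, 2.14, 2.26 and 2.36 in that order. It was also lost with the number in the library name as a block. Cyp2f2, a cytochrome P450, was lower in females at -2.42 (SE 0.46, adjusted p = 0.0149), from 378, 748, 858 and 579.6 CPM in CRE- to 72.3, 224, 89.8 and 92.7 CPM in LKO livers, with no overlap. It was -2.01 (adjusted p = 0.134) by edgeR without the 3 libraries.

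The rest of the Wnt pathway was read from lists by role. Of 21 genes of Wnt ligands and their secretion 9 passed the filter on low counts. Wnt10a, a ligand, had 0, 0, 0 and 4 reads in male CRE- livers and 121, 38, 351 and 42 reads in male LKO livers. Female CRE- livers had 2, 4, 4 and 2 reads of Wnt10a and female LKO livers 64, 1248, 191 and 403 reads. Every LKO liver was thus above every control in both sexes, with controls next to 0. The fitted log2 fold change was 7.08 (SE 1.24, adjusted p = 0.0166) in males and 7.40 (SE 1.14, adjusted p = 0.0055) in females by edgeR, and its size depends on the prior count because the controls are so low. The male call was lost without male CRE- 1, 2 and 3, at 6.66, 6.70 and 6.74 in that order, and the estimate was 10.20 without male CRE- 4 and 6.04 without male LKO 3. In females it was 6.29 without female LKO 2 and passed. The other 8 ligand genes gave 0 calls by edgeR in either sex, with 2 in males and 0 in females at an unadjusted p under 0.05, and DESeq2 called 0 of them. Wnt2 and Wnt9b, ligands of the central vein endothelium chosen after their values were seen, were low in libraries that stand apart. Wnt2 had 51, 94, 4 and 116 reads in male CRE- livers and 118, 136, 206 and 154 reads in male LKO livers. Every male LKO liver was above every male control in Wnt2 by CPM, with a log2 fold change of 1.37 (95% interval -0.18 to 2.92, adjusted p = 0.582) by edgeR, and 3 of the 9 ligand genes were higher without overlap in males, where 598 of the 16742 genes tested were. Female CRE- livers had 126, 244, 83 and 185 reads of Wnt2 and female LKO livers 70, 176, 106 and 6 reads. Wnt9b had 66, 66, 10 and 50 reads in male CRE- livers and 100, 80, 72 and 46 reads in male LKO livers. Female CRE- livers had 84, 84, 78 and 102 reads of Wnt9b and female LKO livers 68, 96, 80 and 4 reads. Both were lowest in male CRE- 3, where most of the 10 genes were lowest, and in female LKO 4, where Rspo3 was lowest but Glul, Axin2 and Lgr5 were highest. Female LKO 1 was far above both libraries in Wnt2 and in Wnt9b. Wnt4, another ligand chosen after its values were seen, was instead the highest of the 16 libraries in male CRE- 3, at 17.89 CPM. In female LKO 4 it was at 2.893 CPM. Whether the ligands account for the levels of the 10 genes in these livers was not tested. Of 3 R-spondins other than Rspo3, 1 was tested, Rspo1, at -0.49 in males and -0.70 in females, with at most 24 reads in a library. With 1 library left out Rspo1 ran from -1.23 to -0.18 in males and from -1.02 to -0.11 in females, and was -1.58 in females without the 3 libraries.

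Of 14 Frizzled, Lrp and Lgr receptors 11 were tested, and their median was -0.25 in each sex and -0.12 in females without female LKO 4. In males 0 passed by edgeR, while 1 had an unadjusted p under 0.05 and DESeq2 called 0. In females 1 passed, 2 had an unadjusted p under 0.05 and DESeq2 called 2, all lower. There Fzd8 was lower at -1.24 (SE 0.26, adjusted p = 0.0223), from 12.4, 19.4, 23.2 and 20.8 CPM to 4.10, 10.3, 9.93 and 7.81 CPM with no overlap, and -0.88 (adjusted p = 0.103) by edgeR without the 3 libraries. Its call was lost without female CRE- 2, 3 and 4, at -1.23, -1.13 and -1.16 in that order. Among 19 genes of the beta-catenin destruction complex and TCF factors 0 passed by edgeR in either sex, where 1 in males and 2 in females had an unadjusted p under 0.05, and DESeq2 called 0. Ctnnb1, which encodes beta-catenin and had their highest mean CPM, had an estimate of -0.05 (95% interval -0.36 to 0.25) in males and -0.20 (95% interval -0.51 to 0.11) in females, and 0.0022 in males without the 3 libraries. Of 15 secreted or membrane Wnt inhibitors 7 were tested, with medians of 0.80 in males and 0.41 in females. Among them Sfrp1 was at 2.11 CPM in male LKO 1 and at 0.708, 0.894 and 0.702 CPM in male LKO 2, 3 and 4. A median of 7 genes can move with 1 such liver, and medians of the 7 with a library left out are not given. In males 0 passed by edgeR, while 1 had an unadjusted p under 0.05, Notum, which DESeq2 called and which was chosen after its values were seen, and in females 0 passed with 0 at an unadjusted p under 0.05 and 0 by DESeq2. Notum encodes an enzyme that takes the lipid off Wnt ligands, and it was at 32.9, 31.4, 10.3 and 31.2 CPM in male CRE- livers and 83.3, 63.2, 66.4 and 67.96 CPM in male LKO livers. Those groups did not overlap, and the estimate was 1.41 (SE 0.34, adjusted p = 0.101) by edgeR. Notum in males was 1.13 (adjusted p = 0.00332) by edgeR without the 3 libraries and passed there, and it did not pass in any fit with 1 library left out.

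Of 9 other beta-catenin target genes 0 passed in males by edgeR, while 1 had an unadjusted p under 0.05 and DESeq2 called 0. In females 1 passed, 3 had an unadjusted p under 0.05 and DESeq2 called 2, all higher. The gene that passed was Myc, at 2.06 (SE 0.45, adjusted p = 0.0231), from 4.66, 2.98, 3.23 and 3.10 CPM to 12.6, 9.62, 11.7 and 24.5 CPM with no overlap. It was 1.63 (adjusted p = 0.152) by edgeR without the 3 libraries, and its call was lost without female CRE- 2, 3, 4 and female LKO 4, at 1.99, 2.02, 2.03 and 1.69 in that order. Of 7 aryl hydrocarbon receptor genes, read because Cyp1a2 responds to that receptor, 0 passed by edgeR in either sex. At an unadjusted p under 0.05 there was 1 in males and 0 in females, and DESeq2 called 0. The medians were 0.32 in males and 0.15 in females, and 0.27 in females without the 3 libraries, and Arnt, with their highest mean CPM, had -0.28 (95% interval -0.66 to 0.10) in males and 0.03 (95% interval -0.35 to 0.41) in females. Arnt was -0.13 in males without male CRE- 3, and -0.14 in females without the 3 libraries, where its sign turned.

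Other genes of glutamine and ammonia handling, 11 in number, share the substrates of Glul, Oat and Slc1a2. In males 1 passed upward (Pycr1) and 1 downward (Slc38a4) by edgeR, and in females 1 upward (Aldh18a1) and 2 downward (Aldh4a1 and Slc38a4). DESeq2 called 4 in males and 5 in females, and 6 and 7 had an unadjusted p under 0.05. Slc38a4, an amino acid transporter, was at 1074, 1183, 1218 and 919 CPM in male CRE- livers and 555, 548, 536 and 501 CPM in male LKO livers, which gave -1.04 (SE 0.21, adjusted p = 0.0414). Its male call was lost without male CRE- 1, 2, 3, 4, male LKO 1, 2, 3 and 4, at -1.05, -0.9985, -0.9993, -1.11, -1.07, -1.06, -1.04 and -1.02 in that order. Female CRE- livers had Slc38a4 at 879.8, 962, 1188 and 889 CPM and female LKO livers at 465, 828, 439 and 457 CPM, which gave -0.84 (SE 0.21, adjusted p = 0.0367). The female call was lost without female CRE- 1, 2, 3, 4, female LKO 1, 3 and 4, at -0.89, -0.85, -0.74, -0.86, -0.75, -0.75 and -0.76 in that order. Pycr1, an enzyme of proline synthesis, had 2.51 (SE 0.49, adjusted p = 0.0322) in males, a call lost without male CRE- 1, 2, 3, 4, male LKO 1, 2, 3 and 4, at 2.43, 2.39, 2.64, 2.57, 2.42, 2.61, 2.44 and 2.53 in that order. Aldh18a1, which makes the precursor of proline, had 1.87 (SE 0.48, adjusted p = 0.0424) in females, a call lost without female CRE- 1, 2, 3, 4, female LKO 1 and 3, at 1.95, 1.78, 1.68, 2.08, 1.19 and 1.83 in that order. Aldh4a1, an enzyme of proline breakdown, had -0.88 (SE 0.21, adjusted p = 0.0298) in females, a call lost without female CRE- 2, 3, 4, female LKO 1, 3 and 4, at -0.87, -0.87, -0.80, -0.74, -0.85 and -0.83 in that order.

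Markers of other cells were read because they bear on the source of the Wnt signal and on the livers that stand apart, and their part in the values of the 10 genes was not tested. The 13 endothelial markers were all tested, and their summed level was 255, 419, 309 and 347 CPM in male CRE- livers and 395, 393, 449 and 426 CPM in male LKO livers. In females it was 321, 444, 426 and 449.7 CPM in CRE- livers and 585, 422, 372 and 415 CPM in LKO livers. By edgeR 0 passed in males, with 2 at an unadjusted p under 0.05 and 0 by DESeq2, and 1 in females, Cdh5, higher at 0.79 (SE 0.17, adjusted p = 0.0249). Among females 3 were higher and 1 was lower at an unadjusted p under 0.05, and DESeq2 called 2. Stab2, their gene with the highest mean CPM, had an estimate of -0.0039 in males and 0.65 (95% interval 0.11 to 1.19) in females. The female value was 0.35 without female LKO 1 and 0.17 without the 3 libraries, and the male value 0.21 without male CRE- 3. Per length, Clec4g and Dnase1l3 were above Stab2 in most livers, and their female estimates, chosen after their values were seen, were -0.70 (95% interval -1.55 to 0.14) and -0.55 (95% interval -1.33 to 0.23). In males these were 0.77 (95% interval -0.08 to 1.62) and 0.68 (95% interval -0.10 to 1.46). In females they were -0.21 and -0.24 without the 3 libraries, and without male CRE- 3 they were 0.45 and 0.38 in males. Cdh5 was at 36.4, 38.5, 36.8 and 27.7 CPM in female CRE- and 72.8, 42.5, 63.7 and 61.8 CPM in female LKO livers, without overlap, and its call was lost without female CRE- 2, 3, 4 and female LKO 1, at 0.84, 0.81, 0.71 and 0.71 in that order. The sum mixes markers that move in different directions in female LKO 4, the library with the lowest Rspo3, as genes chosen after their values were seen show. There Tek, at 4.77 CPM, was the lowest of the 16 libraries, and Dnase1l3, at 29.1 CPM, Clec4g, at 26.7 CPM, and Cdh13, at 1.74 CPM, were the lowest of the females. Pecam1, at 44.9 CPM, was the highest of the 16, and Lyve1, at 41.7 CPM, and Stab2, at 77.3 CPM, were above all female livers but LKO 1. In male CRE- 3 Dnase1l3, at 15.2 CPM, Clec4g, at 10.9 CPM, and Cdh13, at 0.208 CPM, were the lowest of the 16. That library also had the highest Stab2, at 77.4 CPM, and Stab1, at 63.9 CPM, of the 8 males, and the highest Lyve1, at 9.83 CPM, and Tek, at 11.4 CPM, of its group. What these markers tell of the endothelial cells in either library was not tested. Of 10 stellate cell markers 0 passed by edgeR in either sex, with 1 in males and 2 in females at an unadjusted p under 0.05, and DESeq2 called 0 in males and 2 in females. Their sum was highest in male CRE- 3, at 814 CPM, and lowest in female LKO 4, at 377 CPM, and Dcn had their highest mean CPM. This sum is mixed too, as genes chosen after their values were seen show. In male CRE- 3, Reln, Lrat, Pdgfrb and Rgs5, at 214, 65.96, 33.1 and 83.6 CPM, were the highest of the 16, while Dcn, at 139.7 CPM, and Ecm1, at 84.7 CPM, were the lowest of the males. In female LKO 4, Reln, Lrat, Ecm1, Dcn and Des were the lowest of the 16, and Rgs5, at 52.5 CPM, was the highest of the females.

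Macrophage markers, 7 of 7 tested, summed to 734, 423, 246 and 1072 CPM in male CRE- livers and 813, 514, 592 and 510.3 CPM in male LKO livers. In females they summed to 638, 509, 555 and 967 CPM in CRE- livers and 3169, 781, 1845 and 899 CPM in LKO livers. The sum was lowest in male CRE- 3 and highest in female LKO 1, the libraries in which the pericentral genes were low. In females all 7 were higher at an unadjusted p under 0.05, with a median log2 fold change of 1.40, DESeq2 called 6 of 7, and 1 passed by edgeR, Adgre1, at 2.15 (SE 0.57, adjusted p = 0.0451). Without female LKO 1 the median was 0.92. In males 0 passed by edgeR, with 0 at an unadjusted p under 0.05 and 0 by DESeq2. Adgre1 was at 31.2, 28.5, 28.7 and 34.2 CPM in female CRE- and 334, 45.2, 99.4 and 64.9 CPM in female LKO livers. Its call was lost without female CRE- 1, 2, 3, 4, female LKO 1 and 3, at 2.16, 2.11, 2.12, 2.20, 1.21 and 2.26 in that order. With the number in the library name as a block the Adgre1 call was lost too. Cd5l had their highest mean CPM. Neutrophil markers, 4 of 5 tested, summed to 25.6, 13.9, 11.7 and 14.2 CPM in female CRE- livers and 77.1, 29.9, 48.2 and 487 CPM in female LKO livers. In males they summed to 54.5, 13.4, 8.09 and 117 CPM in CRE- livers and 17.2, 10.1, 7.70 and 7.13 CPM in LKO livers. Female LKO 4 was the highest, and S100a9 had their highest mean CPM. In females 4 of 4 were higher at an unadjusted p under 0.05, as were 2054 of all 16742 genes, and DESeq2 called 4. The groups did not overlap in any of the 4, where 870 of the 16742 genes were higher without overlap. By edgeR 2 passed, Mmp8 at 3.499 (SE 0.79, adjusted p = 0.0266) and Retnlg at 2.86 (SE 0.69, adjusted p = 0.0331). The Mmp8 call was lost without female CRE- 1, 2, 3, 4, female LKO 1 and 4, at 3.57, 3.71, 3.38, 3.38, 3.40 and 2.66 in that order. That of Retnlg was lost without female CRE- 1, 2, 3, 4, female LKO 1 and 4, at 3.06, 2.69, 2.79, 2.95, 3.04 and 2.04 in that order. Among males 0 passed by edgeR, with 4 at an unadjusted p under 0.05, all lower, and DESeq2 called 1. For the difference between the sexes 0 passed by edgeR, with 4 at an unadjusted p under 0.05, and DESeq2 called 4 of 4.

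The sum of the liver tumour genes, 6 of 6 tested, also set female LKO 4 apart. That library had the highest Glul, Axin2, Lgr5, Oat, Slc1a2 and Rnf43. The sum was 23.7, 19.6, 58.9 and 26.1 CPM in male CRE- livers and 44.8, 15.4, 64.9 and 19.3 CPM in male LKO livers. In females it was 44.5, 30.8, 26.8 and 80.4 CPM in CRE- livers and 31.8, 212, 104 and 2334 CPM in LKO livers. In female LKO 4 it was mostly H19 and Igf2. These, Afp and Scd2 were the highest of the 16 libraries there. Gpc3, at 4.223 CPM, was below male CRE- 3, at 4.42 CPM. Cdkn3, at 0.9256 CPM, was below female LKO 1 and 3, at 0.9566 and 1.427 CPM. H19, a long noncoding RNA, had the highest mean CPM of the 6. It was at 0.284, 0.579, 0.884 and 1.89 CPM in male CRE- livers and 24.7, 2.29, 48.5 and 6.43 CPM in male LKO livers, which did not overlap. Its male estimate was 4.50 (SE 1.42, adjusted p = 0.249) by edgeR, with an adjusted p of 0.0234 from DESeq2, which called it. The male sums also hold Scd2, which, chosen after its values were seen, was lower in male LKO livers, at 13.8, 10.7, 13.4 and 9.81 CPM, than in male controls, at 21.7, 17.7, 50.8 and 22.4 CPM. In females H19 was at 6.81, 0.467, 0.575 and 2.51 CPM in female CRE- livers and 6.62, 150.3, 71.8 and 1775 CPM in female LKO livers. Igf2, the growth factor gene next to it, was at 1.46, 1.25, 0.431 and 1.28 CPM and 2.21, 32.5, 5.67 and 458 CPM in the same groups. H19 overlapped between the female groups, through LKO 1 and control 1. Both were higher in females, H19 at 7.59 (SE 1.59, adjusted p = 0.0206) and Igf2 at 6.81 (SE 1.32, adjusted p = 0.0162), and still passed without female LKO 4, at 4.88 and 3.60. The H19 call was lost without female CRE- 2, 3 and 4, at 7.24, 7.26 and 7.60 in that order, and the estimate was 8.74 without female CRE- 1. That of Igf2 was lost without female CRE- 2, 3 and 4, at 6.87, 6.54 and 6.92 in that order. Afp passed as well, at 3.01 (SE 0.76, adjusted p = 0.0395), and was lost without female CRE- 1, 2, 3, 4, female LKO 1 and 4, at 2.77, 2.87, 2.89, 3.65, 3.03 and 1.92 in that order. The calls of Igf2 and Afp were also lost with the number in the library name as a block, where both estimates were smaller. In females 3 passed by edgeR, 4 had an unadjusted p under 0.05 and DESeq2 called 3, all higher. In males 0 of the 6 passed by edgeR, where 2 had an unadjusted p under 0.05 and DESeq2 called 1, H19. Whether the tissue of female LKO 4 had changed, and what part that would have in its pericentral values, was not tested. Without that liver the female estimates of Glul, Axin2 and Lgr5 were 0.02, 0.27 and 0.22.

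Of 6 proliferation genes 4 passed in females by edgeR, all higher, with 5 at an unadjusted p under 0.05, 5 by DESeq2 and a median of 1.70. They were highest in female LKO 1, a library low in the pericentral genes, and without it the median was 1.504. Birc5 had 1.63 (SE 0.36, adjusted p = 0.0232), a call lost without female CRE- 1, 2, 3 and female LKO 1, at 1.54, 1.74, 1.43 and 1.36 in that order. Ccnb1 had 2.60 (SE 0.58, adjusted p = 0.0256), a call lost without female CRE- 2, 3, 4 and female LKO 1, at 2.39, 2.33, 2.86 and 2.28 in that order. Cdk1 had 1.72 (SE 0.39, adjusted p = 0.0266), a call lost without female CRE- 1, 2, 3 and female LKO 1, at 1.59, 1.58, 1.56 and 1.65 in that order. In males 0 of the 6 passed by edgeR, with 1 at an unadjusted p under 0.05 and 0 by DESeq2. Of 4 midlobular genes 1 passed in females, Hamp2, a relative of hepcidin, lower at -4.56 (SE 1.14, adjusted p = 0.0368). Its call was lost without female CRE- 2, 3, 4, female LKO 1 and 3, at -4.63, -4.54, -4.15, -4.16 and -4.56 in that order, and the estimate was -6.03 without female LKO 2. Among females 2 of the 4 had an unadjusted p under 0.05, 1 higher and 1 lower, and DESeq2 called 2. In males 0 of the 4 passed by edgeR, with 1 at an unadjusted p under 0.05 and 1 by DESeq2. Cholangiocyte markers, 7 in number, and lymphocyte markers, 6 in number, gave 0 calls by edgeR and 0 by DESeq2 in the LKO comparison of either sex. A cholangiocyte marker was higher in female LKO livers at an unadjusted p under 0.05, which makes 1 of the 7, and 0 of the 6 lymphocyte markers were in either sex. Between female and male controls 1 of the 7 cholangiocyte markers passed by edgeR, where 0.92% of all genes did, and DESeq2 called 1. It was Krt19 by edgeR, at 0.791, 0.624, 0.676 and 0.764 CPM in male controls and 3.02, 1.81, 2.01 and 2.19 CPM in female controls. Its estimate was 1.66, and the call was lost in all 8 fits with 1 library left out, at 1.49 to 1.75.

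The 10 genes were also compared in their promoter windows, from RefSeq on GRCm38.p6, which cover 250 bases before to 50 after a gene start. The table held 6 of the 10, Glul, Cyp1a2, Axin2, Oat, Slc1a2 and Rnf43, and lacked Lgr5, Tbx3, Znrf3 and Rspo3. Each window was found at 1 place, letter for letter, on GRCm39, and positions are given on that build. A TCF/LEF motif, written as CTTTGAT or CTTTGTT and searched on both strands, was in 1 of the 6, Slc1a2, and in 9.33% of the 32851 windows of the table. An aryl hydrocarbon receptor core, written as GCGTG and searched on both strands, was in 1 of the 6, Rnf43, and in 32.4% of all windows. The Slc1a2 window is shown for the gene that varied most closely with Oat and Glul, with the motif, read on the opposite strand, in capitals. It lies at chr2:102536533-102536832 on the plus strand, inside the span of the gene, and the first base of the motif is at -207 from the start.
Slc1a2: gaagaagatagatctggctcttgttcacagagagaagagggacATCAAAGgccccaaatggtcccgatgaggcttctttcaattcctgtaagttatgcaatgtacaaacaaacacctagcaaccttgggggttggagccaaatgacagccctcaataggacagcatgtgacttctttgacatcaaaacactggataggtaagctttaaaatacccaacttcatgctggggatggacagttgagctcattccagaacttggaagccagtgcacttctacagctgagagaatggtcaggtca
The Glul window, at chr1:153775425-153775724 on the plus strand, is shown beside it as that of the gene whose level was highest, and holds neither motif.
Glul: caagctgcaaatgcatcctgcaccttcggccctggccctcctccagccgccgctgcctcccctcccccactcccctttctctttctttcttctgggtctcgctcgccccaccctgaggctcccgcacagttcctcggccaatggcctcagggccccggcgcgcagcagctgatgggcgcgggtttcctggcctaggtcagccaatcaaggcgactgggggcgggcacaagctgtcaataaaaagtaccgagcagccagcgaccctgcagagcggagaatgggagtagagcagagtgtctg
A match is a description of letters, and the lack of one says only that these letters are not in this window.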

How the data were processed

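Bulk RNA of 16 mouse livers was sequenced, 4 for each combination of sex and genotype. The authors aligned reads with STAR 2.7.1a to GRCm39 and counted them per gene with featureCounts of Subread 2.0.6, and the deposited table holds these values as a raw count per gene and library. Single reads rather than pairs were counted, on the stranded setting, and reads that map to several places were not counted. Library totals ran from 33268424 to 56488920 reads. Here the counts were scaled by TMM, filtered with filterByExpr at a minimum count of 10, and tested in R 4.3.3 with edgeR 4.0.16 by a quasi-likelihood fit of all 4 groups. P-values were adjusted by the Benjamini-Hochberg method over the 16742 genes tested, with a threshold of 0.05, and intervals are 95%. Unless another tool is named, every fold change, interval and adjusted p in the text is from edgeR. CPM and TPM were computed from the same counts, with the deposited gene lengths. The members and the other lists were chosen by name, with earlier results of these data known. Genes named from other lists are up to 3 in each direction past the threshold, or else the gene with the highest mean CPM, and likeness is given for the 3 genes most like Glul and Axin2. Alternatives were DESeq2 1.42.0, limma 3.58.1 with sample weights, other scalings and filters, the 2 groups compared alone, a block for the replicate number, a threshold of 0.01, and each library left out. Leaving out the 3 libraries least like their group, and a block for the number in the library name, were added after the data were seen. The analysis was tested on simulated data.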

Additional observations from a re-analysis of the deposited data

Results flagged for a closer look

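The values below were singled out because 1 liver lay far from the other 3 of its group, by a rule that a group of 4 meets by chance in about 1 of 20 groups. It was met in 4 of 44 groups, those of the 10 genes and Gcgr. Glul in female LKO 4 was 5724 CPM, and the nearest liver of the group was at 1841. Rnf43 in female CRE- 3 was 29.4 CPM, and the nearest was at 24.2. Rspo3 in female LKO 4 was 2.26 CPM, and the nearest was at 7.72. Gcgr in male CRE- 3 was 127 CPM, and the nearest was at 189.6. Cyp1a2 was singled out because every male LKO liver was above the mean of the male controls while every female LKO liver was below the mean of the female controls, on the log2 scale. Its log2 difference, females less males, was -1.48 (adjusted p = 0.241 by edgeR), and -0.90 without the 3 libraries least like their group. Znrf3 had estimates of opposite sign as well, -0.33 in males and 0.75 in females, and missed the rule by 1 liver, male LKO 3. With plain means of CPM in place of log2 means it would meet it, and its difference between the sexes was 1.07 (adjusted p = 0.284 by edgeR).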

How the results depend on the processing

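Over the alternatives, 790 values of the 10 genes were compared with the 40 values of the text. Of these 746 kept their direction and side of the threshold, 43 were reversed and 1 passed the threshold. The cause of the reversals was not tested. Calls of other genes were also lost in alternatives beyond those that leave out 1 library. In females this was so in 5 of 10 for Gcgr, 4 of 10 for Adgre1 and 4 of 9 for Afp. It was so in 3 of 9 for Mmp8 and 3 of 10 for Slc38a4, also in females, and in 5 of 10 for Avpr1a between controls. The other calls of named genes were lost in at most 2.

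With 1 library left out in turn, the male log2 fold change ran from -0.42 to 0.19 for Glul, from -0.0727 to 0.50 for Lgr5, from -0.17 to 0.0853 for Rnf43 and from -0.55 to 0.0747 for Znrf3. The female values ran from -1.24 to 0.10 for Oat, from -0.25 to 0.76 for Slc1a2, from -0.0644 to 0.33 for Rnf43 and from -0.35 to 0.0725 for Rspo3. The difference between the sexes ran from -0.0113 to 0.99 for Axin2 and from -0.0014 to 0.39 for Rnf43. Between controls the values ran from -0.16 to 0.44 for Glul, from -0.0076 to 0.49 for Axin2, from -0.24 to 0.16 for Tbx3 and from -0.27 to 0.41 for Slc1a2.

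With limma-voom and sample weights, Glul in males was 0.0341 and Lgr5 in males -0.0507. Without the 3 libraries least like their group, an alternative chosen after the data were seen, Lgr5 in males was -0.064, Znrf3 in males 0.0826 and Rspo3 in females 0.0948. Between controls, Glul was then -0.16, Axin2 -0.0068 and Slc1a2 -0.27. The pairs of members past the threshold of correlation went from 13 to 0 in that alternative, and to 0 without the 2 libraries farthest from the median of the first gene.

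All genes called in males were 76, and 335 by DESeq2, 148 by limma-voom, 123 without the 3 libraries, 22 at an adjusted p under 0.01 and 26 to 49 with 1 library left out. In females 710 were called, and 1795 by DESeq2, 1976 by limma-voom, 1244 with the block for the number in the title, 1074 with that in the library name, 119 with the 2 groups alone, 141 without the 3 libraries, 51 at 0.01 and 87 to 1310 with 1 library left out. For the difference between the sexes 0 were called, and 369 by DESeq2, 29 by limma-voom, 12 with no filter, 5 without the 3 libraries and 0 to 14 with 1 library left out. Between controls 154 were called, and 498 by DESeq2, 329 by limma-voom, 249 with the 2 groups alone, 78 with at least 10 counts in every library, 54 at 0.01 and 68 to 149 with 1 library left out.

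The labels do not say what a replicate number shares, and the number in the library name differs from that in the title in male CRE- 4, female LKO 3 and female LKO 4. Deviations from the group means of LKO and CRE- livers of the same sex and title number correlated at r between -0.013 and 0.1725 over 8 pairs, and those of female and male controls at r between 0.0275 and 0.3323. By the number in the library name, r was between 0.1443 and 0.1696 over 3 male pairs and between -0.0178 and 0.1725 over 3 female pairs. Not every pair was above 0.1 by either number, although all 3 male pairs were by the library name, so the livers were treated as unpaired. Against the other genotype of its sex, 9 of 16 libraries correlated best with their own title number, a hint from the data and not the design. With a block for the title number, Tbx3 between controls was 0.0154, the only reversed value of 40, and no call of the 10 genes changed. The call of Avpr1a between controls was lost, at 1.71.

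With a block for the number in the library name, added after the data were seen, the count of members called in females went from 0 to 1, Znrf3 at 1.06 (adjusted p = 0.0308 by edgeR), and stayed 0 in the other comparisons. Reversed in males were Glul at 0.2153 and Rnf43 at 2e-04, and in females Slc1a2 at -0.3065 and Rnf43 at -0.0315. The difference between the sexes was reversed for Glul at -0.1896, Axin2 at -0.3024, Lgr5 at -0.0742, Oat at -0.6289, Slc1a2 at -0.1387 and Rnf43 at -0.0317, and between controls Tbx3 was 0.0574. The calls lost were those of Hsd17b6 in males at 2.16, Adgre1, Igf2 and Afp in females at 1.55, 3.91 and 2.08, and Krt19 between controls at 1.55. Only male CRE- 4 and female LKO 4 carry the number 5, and whether a shared batch or that liver moves these values was not tested.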
